A study of Homo sapiens with 6 samples.

Results

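The genes described here encode 27 proteins of cholesterol and fatty acid synthesis, out of 28675 genes in the count table of an RNA sequencing study of MDA-MB-231 cells, a line from a triple-negative breast cancer. They were taken from the table by gene symbol, each symbol matched 1 row, and all 27 passed the filter on low counts that left 16226 genes to test. The list covers much of both pathways but not every gene in them. The study compared 3 libraries from cells whose genotype is labelled LARP6 overexpression with 3 libraries from cells labelled no-load control. LARP6, a La-related protein, binds RNA, and the study asked which RNAs it binds and regulates in these cells. Beyond that genotype the labels give both groups the same cell line and preparation, and they do not say how LARP6 was introduced or whether the cells were a pool or 1 clone.

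Cholesterol is built from acetyl-CoA through mevalonate, isoprenoid diphosphates, squalene and lanosterol, and the later enzymes sit in the membrane of the endoplasmic reticulum. Fatty acids are built from the same acetyl-CoA by a carboxylase and fatty acid synthase, then elongated and desaturated. Most of these genes share transcriptional control by the sterol regulatory element-binding proteins (SREBPs), which the escort protein SCAP carries to the Golgi for cleavage when sterols are scarce, and which INSIG proteins hold back when sterols are plentiful. Dividing cancer cells draw on both routes for membrane lipids.

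Depth was 29409101 to 33387050 counts per library. LARP6 itself stood at 1995, 2198 and 2131 CPM (counts scaled to library size with TMM factors) in LARP6 libraries 1, 2 and 3, against 44.2, 40.7 and 43.3 CPM in control libraries 1, 2 and 3, so each library matched its label. The cell line's markers were present, with VIM at 3112 to 3397 CPM over the 6 libraries and CD44 at 702 to 769 CPM. Of the hormone receptor and luminal genes looked at, ESR1 (the estrogen receptor gene), PGR and FOXA1 had 1, 26 and 17 counts in all 6 together. GATA3 and EPCAM, from the same list, were expressed, at 10.1 to 12.1 CPM and 14.4 to 16.4 CPM. Libraries of a group differed from each other beyond counting noise, where the chi-square per gene was 2.04 to 3.62, and each was counted as 1 replicate. Whether the libraries of a group are separate cultures is not stated in the labels, and the spread behind each p-value may therefore be technical.

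Of the 27 genes, 10 fell in LARP6 cells, 0 rose and 17 were not called (edgeR quasi-likelihood test, Benjamini-Hochberg adjusted p below 0.05 over all genes tested). That is 37.0% of the genes, where 3.60% of all 16226 tested genes were called lower, 2.43% higher and 6.03% in either direction. The 27 genes were chosen with earlier results of these data known, so these shares describe the list and do not test it. Among the 4734 genes at or above the 42.4 CPM of the least expressed of the 27, where small changes are easier to call, 9.93% were called lower and 3.55% higher. That cutoff matches expression only in part, because the median level was 266 CPM for the 27 genes and 16.6 CPM for all tested genes. The 10 genes were DHCR7, EBP, FASN, SREBF1, LSS, SCD, NSDHL, INSIG1, FDPS and FADS2, and their levels were 5.82% to 13.5% lower. At an unadjusted p below 0.05 there were 16 lower genes and 1 higher gene, STARD4, of the 27, where 10.3% of all tested genes were lower and 8.75% higher. DESeq2 called 9 of the 27 lower and limma-voom 10, where they called 2.06% and 3.17% of all genes lower, and both called 0 of the 27 higher. The median change over the 27 was -4.94% (log2 -0.07), and over all tested genes the log2 median was 0.004. Scaled by library size alone, 8 of the 27 fell, where 303 of all genes (1.87%) were called lower and 687 higher, against 584 lower and 395 higher with TMM. Without LARP6 library 2 the calls numbered 4 (DHCR7, EBP, FASN and SCD) rather than 10, the median log2 change was -0.04, and 1.70% of all genes tested were called lower.

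The 27 genes together took 7814.8, 7659.7 and 7845.2 CPM in LARP6 libraries 1, 2 and 3, against 8202.0, 8236.0 and 8351.8 CPM in control libraries 1, 2 and 3. The means were 7773.2 ± 99.5 CPM in LARP6 cells and 8263.3 ± 78.5 CPM in control cells (SD, n = 3 each), so the summed levels of the groups did not overlap. For 16 of the 27 genes (59.3%) every LARP6 library was below every control library, and for 1, STARD4, every LARP6 library was above. Over all tested genes the share with every LARP6 library below was 11.7%, and among the genes at or above 42.4 CPM it was 22.8%. LARP6 library 2 was the lowest of its group for 19 of the 27 genes, and libraries 1 and 3 for 4 each. Against the control mean, 22, 23 and 22 of the genes were lower in LARP6 libraries 1, 2 and 3. These counts share the same control mean and are not independent. Neither they nor the counts of the lowest library were made over all genes. Between the groups, 81.5% of the 27 genes and 48.8% of all tested genes had a log2 change below 0. The median log2 change of genes at or above 42.4 CPM was -0.018. In bulk RNA, a lower level can come from fewer cells that express a gene or from less RNA per cell, and these cannot be told apart.

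**Figure D1:**
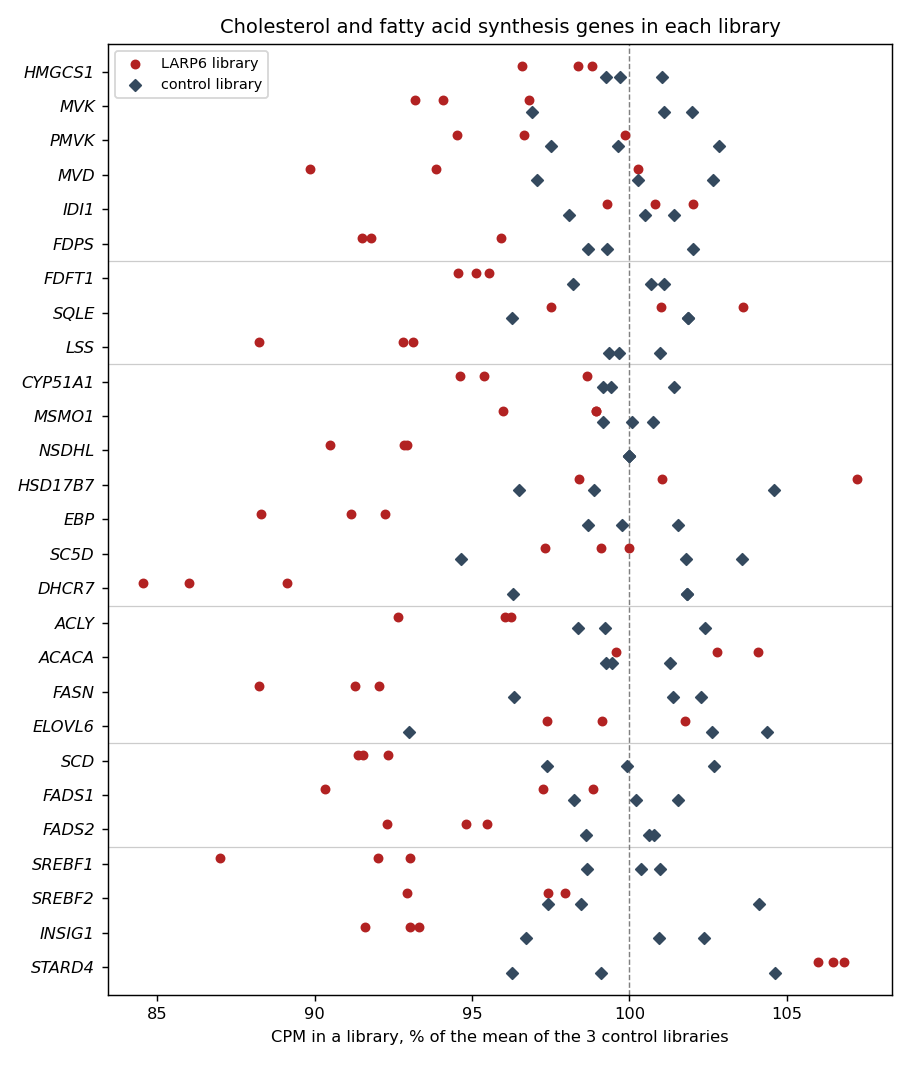
Level of each of the 27 genes in each library, as a percentage of the mean CPM of the 3 control libraries, with LARP6 libraries as red circles and control libraries as dark diamonds; grey lines separate steps of the pathways. For 16 genes all 3 red circles lie left of all 3 diamonds, and for STARD4 all lie right of them.

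At the end of the sterol route, 3 of 7 enzymes that turn lanosterol into cholesterol fell. DHCR7, which reduces the last sterol ring double bond on the way to cholesterol, had 358, 352 and 371 CPM in LARP6 libraries and 424, 401 and 424 CPM in control libraries. All LARP6 values lay below all control values, and its decrease was the largest among the 27 genes, at -0.21 ± 0.03 on the log2 scale (SE; edgeR adjusted p = 1.16e-09). EBP, the sterol isomerase that acts earlier in the same stretch, had 246, 254 and 257 CPM in LARP6 libraries and 275, 278 and 283 CPM in control libraries. It fell by 0.14 on the log2 scale (SE 0.03, edgeR adjusted p = 0.000135), again with no overlap. NSDHL, a dehydrogenase that helps remove methyl groups from the sterol ring, had 98.5, 95.9 and 98.4 CPM in LARP6 libraries and 106 CPM in each control library. Its change was -0.12 ± 0.03 (log2, SE; edgeR adjusted p = 0.0282). The NSDHL call was the least steady of the 10, being lost in 5 of the 6 fits that left out 1 library (each library except LARP6 library 3).

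The other enzymes of this stretch were not called. CYP51A1, the lanosterol demethylase, had 392, 376 and 379 CPM in LARP6 libraries and 395, 394 and 403 CPM in control libraries, which did not overlap by a narrow margin (log2 fold change -0.06 ± 0.03, SE; edgeR adjusted p = 0.229). MSMO1, the methylsterol oxidase, averaged 429.8 ± 7.59 CPM in LARP6 cells and 438 ± 3.55 CPM in control cells (SD, n = 3 each). Its 95% interval for the log2 change ran from -0.08 to 0.02. SC5D, the sterol desaturase that acts just before DHCR7, averaged 111 ± 1.54 and 112 ± 5.46 CPM in LARP6 and control cells (SD, n = 3 each), with an interval of -0.08 to 0.05. HSD17B7, a ketoreductase that partners MSMO1 and NSDHL, averaged 42.9 ± 1.91 and 42.0 ± 1.74 CPM in LARP6 and control cells (SD, n = 3 each), with an interval of -0.07 to 0.13. Neighbouring enzymes of one route thus ranged from -13.5% for DHCR7 to 2.07% for HSD17B7, and whether these differed from each other was not tested. HSD17B7 has an annotated pseudogene copy, HSD17B7P2, with 7.67% as many counts over the 6 libraries, so reads may be split between them.

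On GRCh38, in GENCODE v29, DHCR7 lies at chr11:71428193-71452868 (minus strand), EBP at chrX:48521158-48528716 (plus) and NSDHL at chrX:152830967-152869729 (plus). LSS lies at chr21:46188141-46228824 (minus), FDPS at chr1:155308748-155320666 (plus) and FASN at chr17:82078333-82098332 (minus). SCD lies at chr10:100347124-100364834 (plus), FADS2 at chr11:61792980-61867354 (plus), SREBF1 at chr17:17810399-17837002 (minus) and INSIG1 at chr7:155297776-155310235 (plus).

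Earlier in the route, 1 of 6 mevalonate and isoprenoid genes fell. FDPS makes farnesyl diphosphate, the branch point for sterols and prenylated proteins. It had 601, 599 and 628 CPM in LARP6 libraries and 650.0, 646 and 668 CPM in control libraries, with no overlap (log2 fold change -0.10 ± 0.03, SE; edgeR adjusted p = 0.00455). Its call was lost without LARP6 library 1 (edgeR adjusted p = 0.0579) and without LARP6 library 2 (0.0942). HMGCS1, the synthase at the entry to the route, had 222, 223 and 218 CPM in LARP6 libraries and 224, 228 and 225 CPM in control libraries. The groups lay next to each other without overlap, and the 95% interval of the log2 change was -0.09 to 0.03. MVK overlaps MMAB on the opposite strand, which had 64.8% as many counts. The kinases MVK and PMVK, which phosphorylate mevalonate in turn, had log2 changes of -0.07 ± 0.03 and -0.04 ± 0.05 (SE; edgeR adjusted p = 0.204 and 0.671). MVD, which decarboxylates the product, stood at -0.08 ± 0.03 (edgeR adjusted p = 0.183), and the isomerase IDI1 at 0.01 ± 0.03 (edgeR adjusted p = 0.891).

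In the stretch that joins farnesyl units and closes the sterol ring, 1 of 3 genes fell. LSS, which folds oxidosqualene into lanosterol, had 285, 270.0 and 284 CPM in LARP6 libraries and 309, 304 and 305 CPM in control libraries. It fell by 0.13 on the log2 scale (SE 0.03, edgeR adjusted p = 0.000625), and the call was lost without LARP6 library 2 (edgeR adjusted p = 0.0594). FDFT1, squalene synthase, also showed no overlap, with 496, 493 and 498 CPM in LARP6 libraries and 512, 527 and 525 CPM in control libraries, and missed the threshold (log2 fold change -0.07 ± 0.03, SE; edgeR adjusted p = 0.0722). SQLE, the epoxidase between them, had overlapping values of 83.3, 78.4 and 81.2 CPM in LARP6 libraries and 77.4, 81.9 and 81.9 CPM in control libraries. The 95% interval of its log2 change was -0.07 to 0.09.

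**Figure D2:**
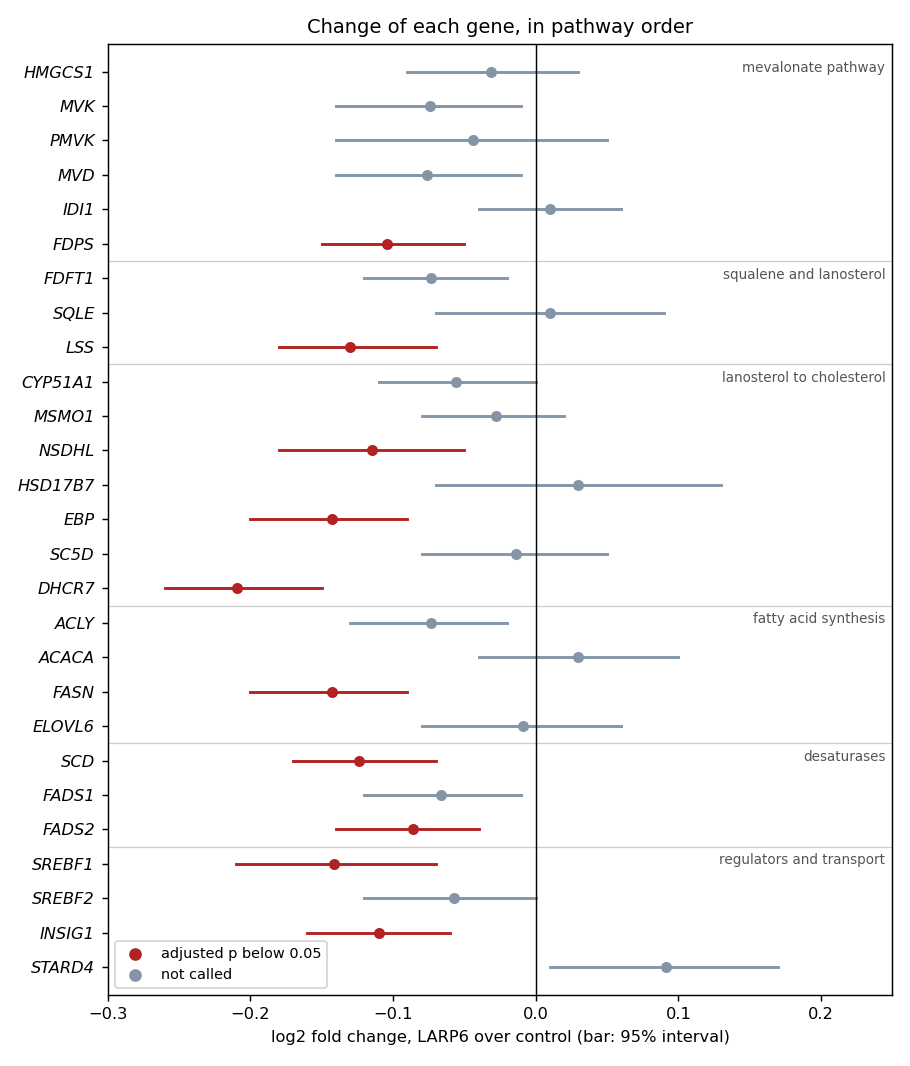
Log2 fold change of LARP6 over control cells for each of the 27 genes in pathway order, with 95% intervals computed from the edgeR test statistics. Red marks the 10 genes with an adjusted p below 0.05 and grey the 17 not called. The values run from -0.21 (DHCR7) to 0.09 (STARD4), and each block of the pathways holds at least 1 red gene.

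Of the 7 fatty acid genes, 3 fell. FASN, the synthase that makes palmitate, had 506, 489 and 510.3 CPM in LARP6 libraries and 567, 534 and 562 CPM in control libraries. No values overlapped, and FASN fell by 0.14 on the log2 scale (SE 0.03, edgeR adjusted p = 3.65e-05). SCD, which introduces the double bond of oleate, had 1133, 1121 and 1123 CPM in LARP6 libraries and 1195, 1226 and 1259.9 CPM in control libraries. It fell by 0.12 (log2; SE 0.02, edgeR adjusted p = 0.000217), and the LARP6 libraries lay close together below all controls. FADS2, a desaturase of polyunsaturated fatty acids, had 571, 556 and 575 CPM in LARP6 libraries and 594, 606 and 607 CPM in control libraries (log2 fold change -0.09 ± 0.03, SE; edgeR adjusted p = 0.0242). The FADS2 call was lost when LARP6 library 1 or 2 or control library 2 or 3 was left out. FADS1, its partner desaturase, had overlapping groups and stood at -0.07 ± 0.03 (log2, SE; edgeR adjusted p = 0.164). FADS1 and FADS2 overlap on opposite strands in GENCODE v29. FEN1 overlaps FADS2 on the same strand, with 28.8% as many counts, so strand cannot separate reads of their shared stretch. The library kit keeps strand, but the strand setting of the authors' counting is not given in the sources used here. Reads of the stretch shared by FADS1 and FADS2 may therefore be counted for either.

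ACLY, ACACA and ELOVL6, which act around FASN, were not called. ACLY, which makes cytosolic acetyl-CoA from citrate, had 452, 436 and 453 CPM in LARP6 libraries and 463, 467 and 482 CPM in control libraries. The groups did not overlap and the call was missed (log2 fold change -0.07 ± 0.03, SE; edgeR adjusted p = 0.0768). ACACA, the carboxylase that makes malonyl-CoA, averaged 95.1 ± 2.19 CPM in LARP6 cells and 93.1 ± 1.04 CPM in control cells (SD, n = 3 each), and ELOVL6, which elongates palmitate, averaged 113 ± 2.49 and 114 ± 6.79 CPM in LARP6 and control cells (SD, n = 3 each). Their 95% intervals for the log2 change were -0.04 to 0.10 and -0.08 to 0.06. ACACA and FASN catalyse successive steps, and the difference between their changes was not tested.

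Among the regulators, SREBF1 and INSIG1 fell, while SREBF2 and STARD4 were not called. SREBF1, whose product favours fatty acid genes, had 91.4, 86.4 and 92.4 CPM in LARP6 libraries and 100.3, 98.0 and 99.7 CPM in control libraries (log2 fold change -0.14 ± 0.04, SE; edgeR adjusted p = 0.00630). INSIG1 encodes the sterol-sensing anchor and is itself a well-known SREBP target. It had 330.0, 324 and 329 CPM in LARP6 libraries and 342, 362 and 357 CPM in control libraries (log2 fold change -0.11 ± 0.03, SE; edgeR adjusted p = 0.00450). Neither gene had overlapping groups, and both calls were lost without LARP6 library 2 (edgeR adjusted p = 0.135 for SREBF1 and 0.0695 for INSIG1). The INSIG1 call was also lost without control library 2 (edgeR adjusted p = 0.0846). SREBF1 overlaps RAI1 on the opposite strand, which had 37.1% as many counts. SREBF2, whose product favours sterol genes, had 190.0, 180.3 and 189 CPM in LARP6 libraries and 189, 191 and 202 CPM in control libraries, which overlapped (log2 fold change -0.06 ± 0.03, SE; edgeR adjusted p = 0.298). STARD4, a cytosolic sterol carrier and also a known SREBP target, was the 1 gene with all LARP6 values on the high side, at 63.2, 63.5 and 63.7 CPM against 59.1, 62.4 and 57.4 CPM in control libraries. The change of 0.09 ± 0.04 (log2, SE) did not pass (edgeR adjusted p = 0.206).

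Upstream sequence was compared because these genes share SREBP control, which in the promoters studied works together with the CCAAT-binding factor NF-Y and with Sp1. RefSeq upstream sequences on GRCh38.p14 were matched for 24 of the 27 genes, with 33 annotated starts, and FASN, FDFT1 and SQLE had no entry in the table. In the 250 bases before each start, both strands were searched for CCAAT, for TCACNCCAC (the core of the sterol regulatory element), for the GC box GGGCGG and for the E-box CACGTG, each counted on its own although matches of different motifs can share end letters. CCAAT was found at 1 or more starts of 18 of the 24 genes (75%), against 41.2% of 11132 tested genes. It was found in 7 of the 9 matched genes that fell and in 11 of the 15 matched genes that were not called. GGGCGG was found for 23 of the 24 (95.8%, against 73.6%), CACGTG for 2 (8.33%, against 11%) and TCACNCCAC for 1, SREBF2 (4.17%, against 1.17%). A match describes letters and is not a binding site shown here, and a window without one says nothing about the factor.

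The stretches below show where the CCAAT boxes lie before 4 of the genes that fell and before MSMO1, which was not called. They were picked after the values were seen, from the genes whose stretch outside exons holds a box. They run 5′ to 3′ on the gene's strand, leave out any base inside an annotated exon, and carry CCAAT or its complement ATTGG in capitals. They cover chr11:71448436-71448643 (minus strand, DHCR7), chr21:46228825-46229024 (minus strand, LSS), chr10:100346983-100347123 (plus strand, SCD), chr7:155297628-155297775 (plus strand, INSIG1) and chr4:165327419-165327622 (plus strand, MSMO1). The DHCR7 stretch precedes a RefSeq start that lies inside the longer GENCODE gene model.
DHCR7: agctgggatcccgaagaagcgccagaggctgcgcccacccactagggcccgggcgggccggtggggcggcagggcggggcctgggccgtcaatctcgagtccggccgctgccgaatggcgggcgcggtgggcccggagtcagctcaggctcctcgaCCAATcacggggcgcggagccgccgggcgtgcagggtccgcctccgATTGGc
LSS: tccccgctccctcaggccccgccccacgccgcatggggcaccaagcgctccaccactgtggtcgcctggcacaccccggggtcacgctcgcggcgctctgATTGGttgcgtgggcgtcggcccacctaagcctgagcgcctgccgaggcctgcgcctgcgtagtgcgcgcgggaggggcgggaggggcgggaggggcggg
SCD: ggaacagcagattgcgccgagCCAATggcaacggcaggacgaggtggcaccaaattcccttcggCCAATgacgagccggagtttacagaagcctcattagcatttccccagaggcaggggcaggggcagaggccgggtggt
INSIG1: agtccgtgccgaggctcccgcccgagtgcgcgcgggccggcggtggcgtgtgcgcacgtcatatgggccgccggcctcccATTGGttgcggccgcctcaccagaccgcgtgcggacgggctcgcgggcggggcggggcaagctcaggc
MSMO1: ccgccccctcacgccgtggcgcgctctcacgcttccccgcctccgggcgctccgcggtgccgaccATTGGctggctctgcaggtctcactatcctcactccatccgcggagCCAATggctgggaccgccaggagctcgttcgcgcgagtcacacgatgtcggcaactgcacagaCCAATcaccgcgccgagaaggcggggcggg
The stretches of DHCR7 and SCD hold 2 CCAAT boxes each, those of LSS and INSIG1 hold 1 each, and that of MSMO1 holds 3. The sterol element of SREBF2 lies at chr22:41832962-41832991 (plus strand) within 30 bases, with its core in capitals and its first base 133 bases before the annotated start.
SREBF2: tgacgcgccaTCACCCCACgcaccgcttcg

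Levels between genes were compared on the authors' FPKM scale, which corrects for gene length. SCD was highest, at 191 ± 0.764 FPKM in LARP6 cells and 205 ± 4.53 FPKM in control cells (SD, n = 3 each). FDPS followed at 146 ± 4.03 FPKM in LARP6 cells and 154 ± 2.44 FPKM in control cells, ahead of EBP at 127 ± 3.05 FPKM in LARP6 cells and 138 ± 1.56 FPKM in control cells and MSMO1 at 134 ± 2.20 FPKM in LARP6 cells and 134 ± 1.43 FPKM in control cells. EBP was thus above MSMO1 in control cells and below it in LARP6 cells. Further down, DHCR7 (46.8 ± 1.33 FPKM), FASN (47.9 ± 1.08 FPKM) and FADS2 (47.8 ± 0.841 FPKM) did not differ beyond their spread in LARP6 cells. The lowest was ACACA, at 6.50 ± 0.146 FPKM in LARP6 cells and 6.26 ± 0.0666 FPKM in control cells. The genes that fell were spread over this range, from SREBF1 at 9.73 FPKM to SCD at 191 FPKM in LARP6 cells.

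**Figure D3:**
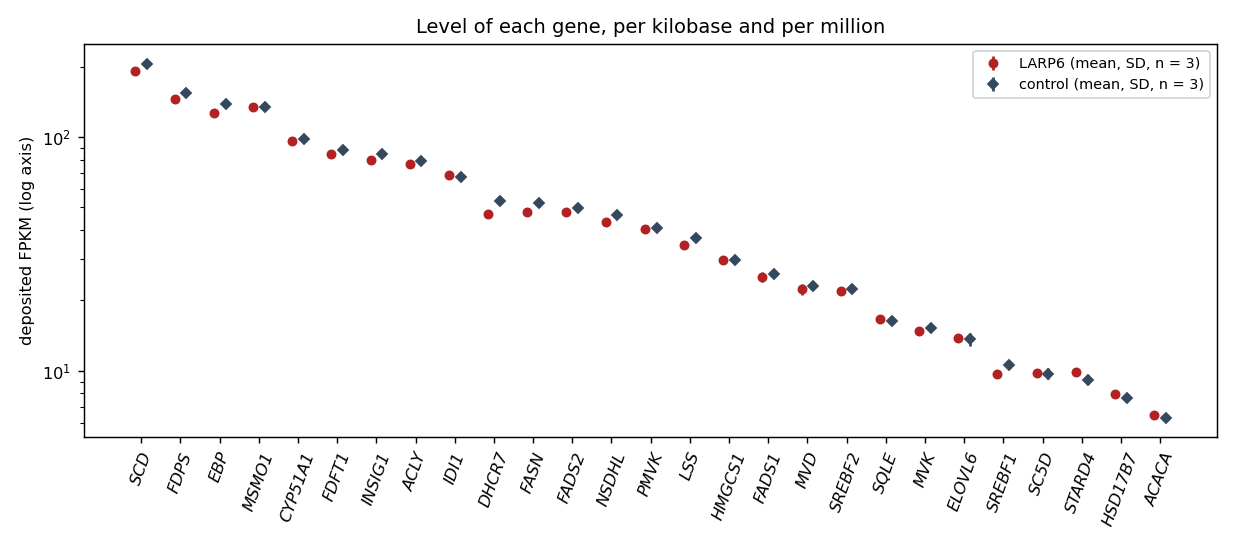
Deposited FPKM of each of the 27 genes on a log axis, as mean and SD of 3 libraries per group, with LARP6 (red circles) left of control (dark diamonds) and genes ordered by their control mean. Levels span 6.50 (ACACA) to 191 (SCD) in LARP6 cells and 6.26 to 205 in control cells.

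Transcript base composition moved with the changes. GC content of the longest annotated transcript ran from 34.2% (STARD4) to 65.3% (FASN), with a median of 57.1% in the 10 genes that fell and 46.5% in the 17 not called. Across the 27 genes, Pearson's r between GC content and log2 fold change was -0.69 and Spearman's rho was -0.68. Across the 4724 genes at or above 42.4 CPM with a GC value, r was -0.32 and rho was -0.53. These are descriptions across genes measured in the same 6 libraries, and genes are not independent replicates. When each library's smooth trend on GC content and transcript length was taken out, 6 of the 10 genes kept their calls. DHCR7 then stood at -0.16 (edgeR adjusted p = 8.54e-07), SCD at -0.15 (2.15e-07), FASN at -0.14 (2.04e-06), INSIG1 at -0.12 (0.000250), LSS at -0.11 (0.00356) and EBP at -0.10 (0.00491). CYP51A1 passed in this fit at -0.09 (edgeR adjusted p = 0.0120). FDPS (0.161), NSDHL (0.106), FADS2 (0.101) and SREBF1 (0.0546) no longer passed. In that fit 2.17% of all tested genes were called lower and the median log2 change of the 27 genes was -0.07.

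**Figure D4:**
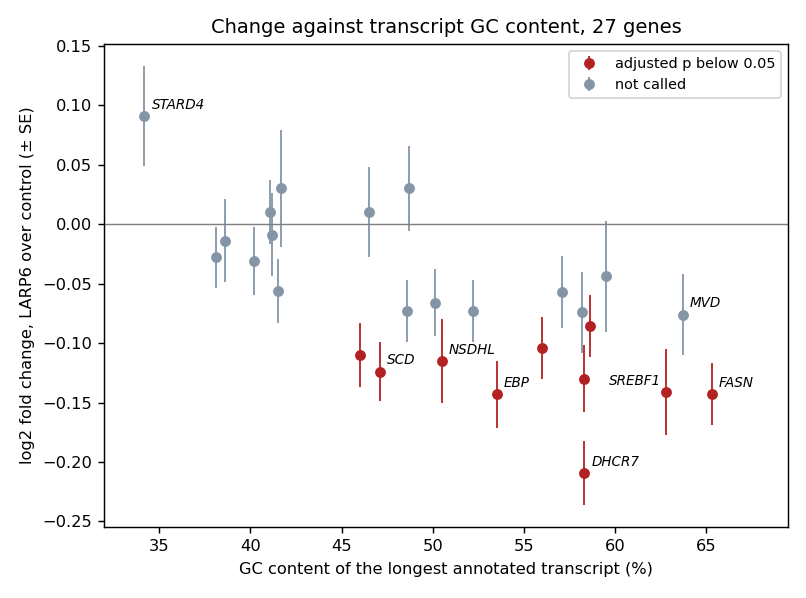
Log2 fold change of LARP6 over control cells (± SE) against GC content of the longest annotated transcript for the 27 genes, with the 10 genes called lower in red and the 17 not called in grey. Red points lie between 46.0% (INSIG1) and 65.3% GC (FASN), and STARD4 has the lowest GC content (34.2%) and the highest change.

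Genes around these pathways were taken from 4 lists, whose counts stand beside the 3.60% of all genes called lower and 2.43% called higher. Among genes at or above 42.4 CPM, 9.93% were called lower and 3.55% higher, and the lists hold genes above and below that level. Of 16 other sterol and isoprenoid genes, 2 fell and 0 rose, with a median log2 change of -0.04. TMEM97, a sterol-regulated membrane protein gene, had 140.1, 148 and 144 CPM in LARP6 libraries and 153, 155 and 155 CPM in control libraries (log2 fold change -0.10 ± 0.03, SE; edgeR adjusted p = 0.0373). Of 16 genes of SREBP processing and sterol sensing, 3 fell and 0 rose. SCAP, the SREBP escort, had 76.0, 74.9 and 78.9 CPM in LARP6 libraries and 79.2, 85.0 and 85.2 CPM in control libraries, without overlap (edgeR adjusted p = 0.0457). NR1H2, which encodes the oxysterol receptor LXR beta, changed by -0.14 ± 0.04 (log2, SE; edgeR adjusted p = 0.00871). Each of the first 2 lists lost calls when libraries were left out, to between 0 and 1 calls in the sterol and isoprenoid list without any 1 of the 6 libraries, and to 1 call in the SREBP list when the library left out was control 3, LARP6 1 or LARP6 2.

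Of 30 tested genes on a list of other fatty acid genes, 6 fell and 2 rose, with a median log2 change of -0.03. FADS3, a relative of FADS1 and FADS2, had 65.5, 64.3 and 65.2 CPM in LARP6 libraries and 77.1, 72.6 and 72.1 CPM in control libraries (log2 fold change -0.19 ± 0.04, SE; edgeR adjusted p = 0.000728). SLC25A1, the mitochondrial citrate carrier that feeds ACLY, had 210.1, 208 and 210.0 CPM in LARP6 libraries and 228, 221 and 234 CPM in control libraries (-0.12 ± 0.03, SE; edgeR adjusted p = 0.00263). In both genes every LARP6 value was below every control value. TECR, the reductase that ends each cycle of very-long-chain elongation, and MID1IP1, which encodes an activator of acetyl-CoA carboxylase, changed by -0.14 ± 0.03 and -0.17 ± 0.04 (log2, SE; edgeR adjusted p = 0.000763 and 0.00139). Outside the rule for named genes, and chosen after their values were seen, LPIN1, a phosphatidate phosphatase gene, and ACSL5, an acyl-CoA synthetase gene, were the 2 that rose (log2 0.14 ± 0.04 and 0.09 ± 0.03, SE; edgeR adjusted p = 0.0205 and 0.0473). The 8 calls on this list became 4 when LARP6 library 1 or 2 was left out, and 5 when control library 1 or 3 was. Of 15 tested genes of sterol uptake, storage and export, SCARB1, the high-density lipoprotein receptor gene, fell (-0.15 ± 0.04, SE; edgeR adjusted p = 0.00379) and OSBPL10, an oxysterol-binding protein family gene, rose (0.12 ± 0.04, SE; edgeR adjusted p = 0.0382), with a list median of 0.04. These 2 calls became 0 when LARP6 library 1 was left out, and 1 when LARP6 library 2 or 3 or control library 1 or 2 was.

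The 10 decreases kept their direction under every alternative tried, with 190 of 190 values below 0, while the calls did not all hold. The alternatives reuse the same libraries in which these 10 genes were called lower. The setting with an adjusted p below 0.01 repeats the reported values. The shared direction is therefore no separate support for the decreases. DHCR7, EBP, FASN and SCD kept an adjusted p below 0.05 in each of the 6 edgeR fits that left out 1 library. On the deposited FPKM values, limma called 0 of the 27 genes in either direction at both pseudocounts tried, 1 and 0.1, where 0.327% and 0.333% of all genes were called lower. At an unadjusted p below 0.05, 10 of the 27 were lower and 1 higher at either pseudocount. Of all genes, 6.21% were then lower and 10.2% higher with the pseudocount of 1, and 6.23% lower and 10.1% higher with 0.1.

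**Figure D5:**
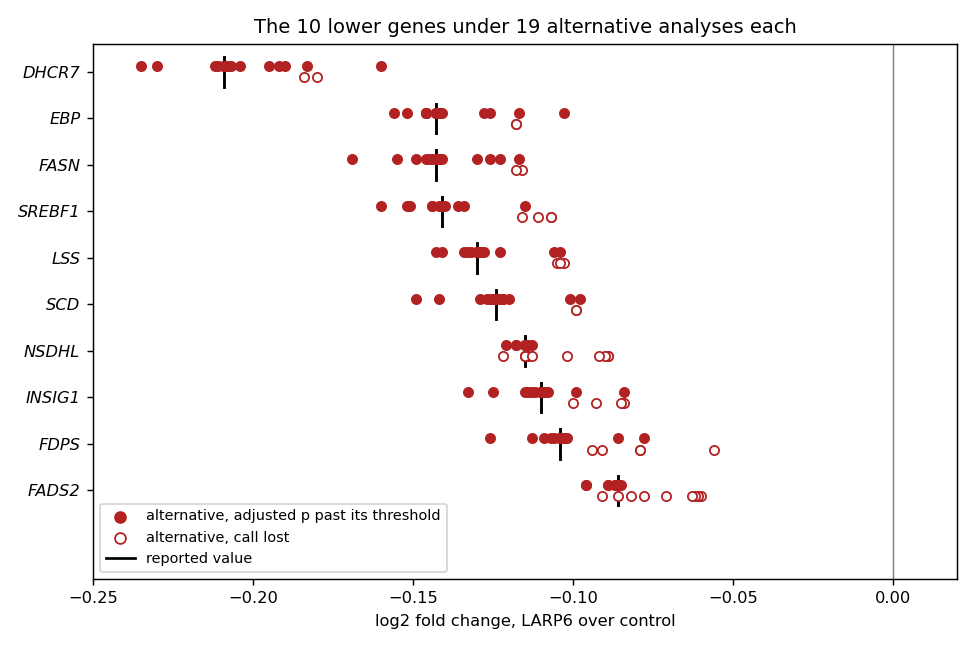
Log2 fold change of LARP6 over control cells for the 10 genes called lower, with the reported value as a black bar and 19 alternative analyses each as circles, filled where the adjusted p passed its threshold and open where the call was lost. All 190 circles lie below 0, and NSDHL and FADS2 have many open circles. The circles for an adjusted p below 0.01 repeat the reported values, and the alternatives reuse the same libraries.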

How the data were processed

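Per the labels' protocols, 6 libraries of MDA-MB-231 cells were made with a stranded mRNA kit and sequenced in pairs at 150 bases. Reads were aligned to GRCh38 with HISAT2, per the submitters' processing notes, which also name DESeq2; the sources used here do not name the counter, its strand setting or the annotation. The authors deposited raw counts per gene and, in a second table, FPKM values.

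Counts were tested with edgeR 4.0.16 (R 4.3.3; robust quasi-likelihood, TMM scaling, filterByExpr) over 16226 genes, with Benjamini-Hochberg adjustment. Intervals are 95%. Total counts ran from 29409101 to 33387050 per library. The lowest count of these genes in a library was 1225, and their log2 SE ran from 0.025 to 0.049. Counting error is part of that spread, most of all for the least expressed genes. Deposited FPKM served for levels and for an alternative in limma 3.58.1 on log2(FPKM + 1) and log2(FPKM + 0.1). Fold changes on that scale understate the change of low genes. DESeq2 1.42.0, limma-voom, other scalings and filters, GC and length offsets (loess, span 0.3), a replicate block and leaving out each library were also tried. The fitting code was run on simulated counts with known changes. Its pass mark was set for edgeR at a change far larger than those of these genes. The promoter and annotation code was not tested in this way. GENCODE v29 supplied coordinates, length and GC content, with 97.0% of identifiers found. The labels name no batch.

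The genes and lists were chosen with earlier results of these data known. Named genes were LARP6, all 27 genes, and up to 4 genes with the smallest p among those past the threshold on each related list. Some genes that this rule names are not reported here. The related-list counts under alternatives were added after seeing the data.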

Additional observations from a re-analysis of the deposited data

How the results depend on the processing

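All genes called numbered 979 (584 lower, 395 higher) and became 510 (335, 175) with DESeq2, 90 (53, 37) on log2(FPKM + 1), 92 (54, 38) on log2(FPKM + 0.1), 443 (295, 148) at an adjusted p below 0.01 and 544 (352, 192) with GC and length offsets. Library size only gave 303 lower and 687 higher. Leaving out 1 library gave 456 to 1040 calls, 281 to 642 lower and 175 to 398 higher. For the 27 genes, calls (all lower) were 0 on either FPKM scale and 4 to 12 with 1 library left out, and the median log2 change was -0.047 with library size only, -0.046 on log2(FPKM + 1), -0.048 on log2(FPKM + 0.1) and -0.083 to -0.043 with 1 library left out. The cause was not tested.

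On the related lists, the sterol and isoprenoid calls (2) became 0 with library size only, DESeq2, both FPKM scales and an adjusted p below 0.01, 1 with no filter and limma-voom, and 0 to 1 with 1 library left out. The SREBP calls (3) became 1 with library size only, DESeq2, an adjusted p below 0.01 and the offsets, 0 on both FPKM scales, and 1 to 2 with 1 library left out. The fatty acid calls (8) became 4 with DESeq2 and an adjusted p below 0.01, 0 on both FPKM scales, 5 with the offsets, and 4 to 6 with 1 library left out. The uptake, storage and export calls (2) became 4 with library size only, 5 with the replicate block, 1 with no filter, DESeq2, limma-voom, an adjusted p below 0.01 and the offsets, 0 on both FPKM scales, and 0 to 2 with 1 library left out.

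Of 323 values of the 17 genes not called, 20 turned sign, all near 0. SC5D and ELOVL6 stood at 0.012 and 0.017 with library size only, 0.01 and 0.015 on log2(FPKM + 1), and 0.01 and 0.016 on log2(FPKM + 0.1). With the offsets PMVK stood at 0.022, IDI1 at -0.029, SQLE at -0.001, HSD17B7 at -0.005 and ACACA at -0.032. With 1 library left out, SQLE ranged from -0.016 to 0.034, HSD17B7 from -0.006 to 0.067, SC5D from -0.052 to 0.011 and ELOVL6 from -0.055 to 0.023, and IDI1 reached -0.001 without control library 3.

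With the replicate number as a block, 12 of the 27 genes were called, adding FDFT1 and ACLY, and all genes called numbered 1345, of which 827 (5.10% of those tested) were lower. The numbers are not known to pair the libraries: deviations from the group means correlated at 0.08, 0.04 and 0.21 for same-numbered libraries over 11072 genes, and LARP6 library 2 correlated more with control library 1 (0.06) than with control library 2.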
